A study of Homo sapiens with 4 samples.

Results

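The genes described here are 9 members of the PARP family (PARP1, PARP2, PARP4, PARP6, PARP8, PARP9, PARP10, PARP12 and PARP14) and DTX3L, the ubiquitin ligase that works as the partner of PARP9. They are 10 of the 56657 rows of the deposited table, and all 10 passed the filter on low counts that left 16817 genes to test. The rows were selected by gene symbol, and the list was proposed with counts from this same comparison in view, so the levels and fold changes of these 10 genes are given as a description, with no p-value. RNA was sequenced from TE5, an established human line of esophageal squamous cell carcinoma. Cells received hairpin RNA by lentivirus, either a control hairpin (shControl, 2 libraries, genotype given as WT) or hairpin RNA against NUP153 (shNUP153, 2 libraries, genotype given as NUP153 knockdown). All 4 libraries come from cells selected with puromycin and collected at day 7. The labels do not say whether the libraries of a group come from separate cultures, and a p-value here reflects no more than the spread among these 4 libraries, which may be technical. The shNUP153 descriptions carry the marks g1 and g2, whose meaning the labels do not give. If these are different hairpins, the SD of shNUP153 holds the difference between hairpins as well.

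PARP proteins transfer ADP-ribose from NAD onto other proteins. PARP1 and PARP2 bind broken DNA and build poly(ADP-ribose) chains that bring repair factors to the break. Most other family members add single ADP-ribose units, and several of them, with PARP9, PARP10, PARP12 and PARP14 among the best known, are induced by interferon. PARP9 pairs with DTX3L, and both are known to act in interferon signalling and in the response to DNA damage.

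Sequence around the transcription start is described first. In it, PARP9, DTX3L, PARP14 and PARP12 hold a motif that interferon factors are known to bind. Promoter windows of 300 bases, 250 before and 50 after each RefSeq start (GRCh38.p14, another build than the hg19 named in the submitters' processing notes), were matched by symbol for 8 of the 10 genes. PARP4 and PARP10 had no entry. The motif is the core of the interferon-stimulated response element (ISRE), searched on both strands as GAAA, any 2 bases, and GAAA again. The runs of 100 bases below cover 90 bases before and 10 after a start, 5′ to 3′ on the gene's own strand, with the ISRE core in capitals.

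DTX3L, chr3:122564248-122564347, plus strand: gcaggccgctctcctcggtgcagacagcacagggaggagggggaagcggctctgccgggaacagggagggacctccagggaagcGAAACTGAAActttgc
PARP9, chr3:122564291-122564390, minus strand: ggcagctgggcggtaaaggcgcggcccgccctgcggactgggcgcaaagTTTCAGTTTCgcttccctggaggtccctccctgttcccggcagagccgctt
PARP14, chr3:122680749-122680848, plus strand: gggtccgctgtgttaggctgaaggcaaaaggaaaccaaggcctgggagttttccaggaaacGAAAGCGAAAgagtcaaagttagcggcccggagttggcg
PARP12, chr7:140062942-140063041, minus strand: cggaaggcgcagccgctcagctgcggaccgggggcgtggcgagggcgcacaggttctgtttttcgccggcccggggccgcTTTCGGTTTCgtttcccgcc
PARP1, chr1:226408084-226408183, minus strand, shown for contrast: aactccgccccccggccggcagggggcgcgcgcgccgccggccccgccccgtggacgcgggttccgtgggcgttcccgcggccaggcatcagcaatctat
PARP2, chr14:20343545-20343644, plus strand, shown for contrast: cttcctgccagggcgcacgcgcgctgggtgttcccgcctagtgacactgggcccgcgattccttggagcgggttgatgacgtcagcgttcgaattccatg

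PARP9 and DTX3L start in the same stretch of chromosome 3. From the PARP9 start shown here, the downstream one of its pair, the genes are read away from each other. That start and the start of DTX3L lie 38 bases apart, and their windows share 137 bases. The capitals in both runs are the same 10 bases (122564332 to 122564341) read on opposite strands. The core spans bases −6 to 4 around the DTX3L start and bases −41 to −32 before this PARP9 start. The upstream PARP9 start lies 446 bases past that of DTX3L, in the direction DTX3L is read, so reading from it crosses the DTX3L start. Its window held no core. The PARP14 core lay at bases −29 to −20, and the PARP12 core in the 10 bases directly before its start. The windows of PARP1, PARP2, PARP6 and PARP8 (3 starts) did not hold the ISRE letters. Among all 35116 windows of this length, 1255 (3.57%) held the core.

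The GAS core is TTC and GAA with any 3 bases between them, a motif of interferon-gamma response. Among these 8 genes, it was in the windows of PARP14 (bases −40 to −32 from the start) and PARP2 (bases −154 to −146). It was in 7.66% of all windows. The E2F core (TTT, then C or G, then GCGC, either strand), tied to S-phase genes, was in 1.15% of all windows and in none of these 8 genes. A match is a description of the letters and does not show that a factor binds there.

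**Figure D1:**
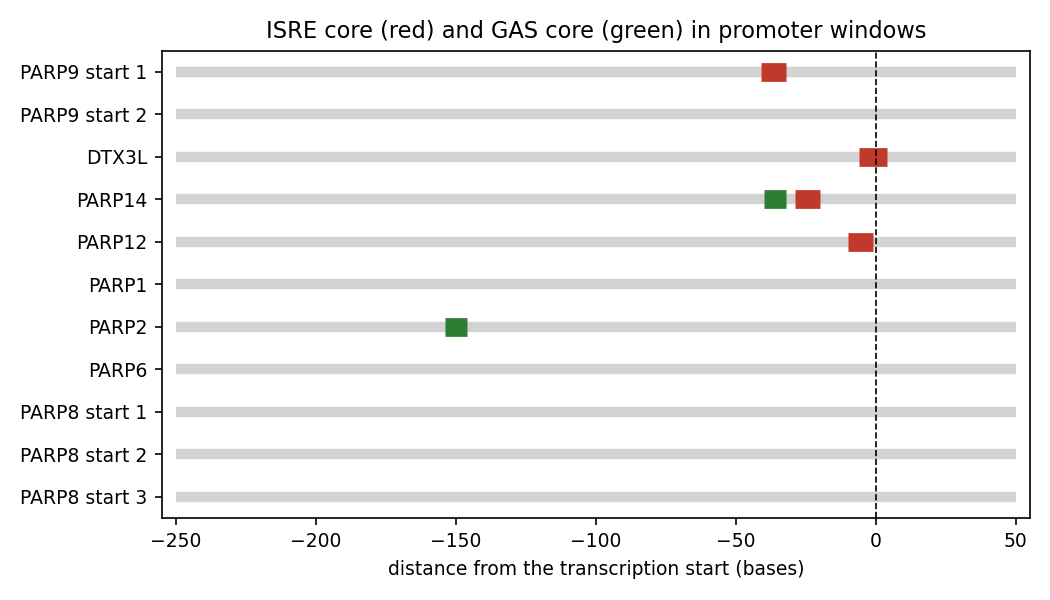
Position of the ISRE core (red) and the GAS core (green) in promoter windows (grey bars) of the members, in bases from each transcription start. PARP9, DTX3L, PARP14 and PARP12 carry an ISRE core within 41 bases of a start, and the windows of PARP1, PARP2, PARP6 and PARP8 carry none.

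The knockdown was read first on its target. NUP153, a nucleoporin of the nuclear basket, stood at 148.9 and 141.6 CPM (read counts scaled to library size, with TMM factors) in shControl and at 67.9 and 81.9 CPM in shNUP153 (log2 fold change −0.96, SE 0.06, edgeR adjusted p = 1.05e-14). Libraries held 22606593 to 27396268 counts, so each member rests on 220 or more counts in every library. Squamous markers summed to 1709 to 1743 CPM in shControl and 2264 to 2280 CPM in shNUP153, with TP63 at 231 to 250.2 CPM and KRT14 at 0.231 to 0.548 CPM. KRT17 (745 and 724 CPM in shControl, 1252 and 1238 CPM in shNUP153) and PERP carried the higher sum, while KRT5 went from 23.7 and 25.1 to 13.8 and 16.8 CPM and SOX2 from 48.2 and 49.4 to 37.6 and 39.4 CPM. Of 9 markers of leukocytes, fibroblasts and endothelium, DCN had no count in any library and the sum was 11.3 to 12.5 CPM in shControl and 24.7 to 25.4 CPM in shNUP153. Nearly all of that sum was CDH5 (9.64 to 22.7 CPM). Of the other endothelial markers, PECAM1 was at 0 to 0.116 CPM. VWF was at 0.902 and 1.43 CPM in shControl and at 2.24 and 1.77 CPM in shNUP153. Both marker sums differ between the groups, and their part in the results below was not tested. In bulk RNA, fewer cells of a type and less RNA per cell cannot be told apart.

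Of the 10 genes, 7 were lower in shNUP153 by the edgeR test, against 17.4% of all tested genes, 1 was higher, against 15.0%, and PARP2 and PARP8 were not called. Nothing is read from that count, because the genes were proposed from this contrast. In 8 of 10 genes every shNUP153 library lay on 1 side of every shControl library, as it did in 64.4% of all tested genes. The median log2 fold change was −0.41 over the 10 genes, −0.71 over PARP9, DTX3L, PARP14, PARP10 and PARP12, and 0.01 over all tested genes. With total-count scaling, 62.8% of all calls were higher in place of 46.3%, and with upper-quartile scaling 57.6%. PARP2 and PARP8, which sat near 0, turned slightly positive with total-count scaling (0.02 and 0.04) and with upper-quartile scaling (0.0024 and 0.02). The other 8 genes kept their sign under each of the 12 alternatives.

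PARP9 showed the largest fold change among the members, although the difference in CPM was larger for PARP1. PARP9 encodes a protein with macrodomains that bind ADP-ribose and has little catalytic activity of its own. Its level was 249.9 and 254 CPM with the control hairpin and 128 and 119 CPM after knockdown (means 252 ± 2.73 and 123 ± 6.08, SD, n = 2). Both shNUP153 libraries lay far under both shControl libraries, a 2.04-fold lower level (log2 fold change −1.03, SE 0.05), the 168th lowest of the 16817 tested genes. DTX3L, the RING-type ligase of the same complex, measured 303 and 295 CPM in shControl and 187 and 177 CPM in shNUP153. It was 1.64-fold lower (log2 fold change −0.71, SE 0.05), with every shNUP153 library under every shControl library. The pair did not move in proportion: the ratio of PARP9 to DTX3L counts was 0.824 and 0.861 in shControl and 0.682 and 0.671 in shNUP153. In GENCODE 29 the exons of the pair overlap by 217 bases on opposite strands, and no source used here says whether counting used strand, so reads of that stretch cannot be told apart.

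PARP14, a large macrodomain protein with mono-ADP-ribosyl transferase activity, lies in the same chromosomal region. It measured 206 and 214 CPM in shControl and 124 and 118 CPM in shNUP153, with wide separation between groups. Its level was 1.73-fold lower (log2 fold change −0.79, SE 0.05), and its ratio to DTX3L counts was 0.679 and 0.725 in shControl and 0.662 and 0.666 in shNUP153, a smaller shift than that of PARP9. PARP15, the remaining family gene of this region, was barely detected, with 1 to 4 counts a library, and was too low to test.

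PARP10 and PARP12 add single ADP-ribose units to proteins and are known as interferon-induced genes with antiviral activity. PARP10 stood at 67.0 and 82.0 CPM in shControl and at 49.5 and 48.8 CPM in shNUP153 (log2 fold change −0.60, SE 0.07). Its shControl libraries differed more from each other than those of any other member (74.5 ± 10.6, SD, n = 2), and without shControl replicate 2 the log2 fold change was −0.45. Exons of PARP10 overlap those of GRINA on the opposite strand by 324 bases, and GRINA measured 110.0 to 115 CPM across the 4 libraries. PARP12, a zinc finger PARP of the Golgi and of stress granules, measured 41.4 and 45.7 CPM in shControl and 34.2 and 32.5 CPM in shNUP153, the smallest fold of the 5 interferon-linked genes at 1.31-fold lower (log2 fold change −0.39, SE 0.07).

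**Figure D2:**
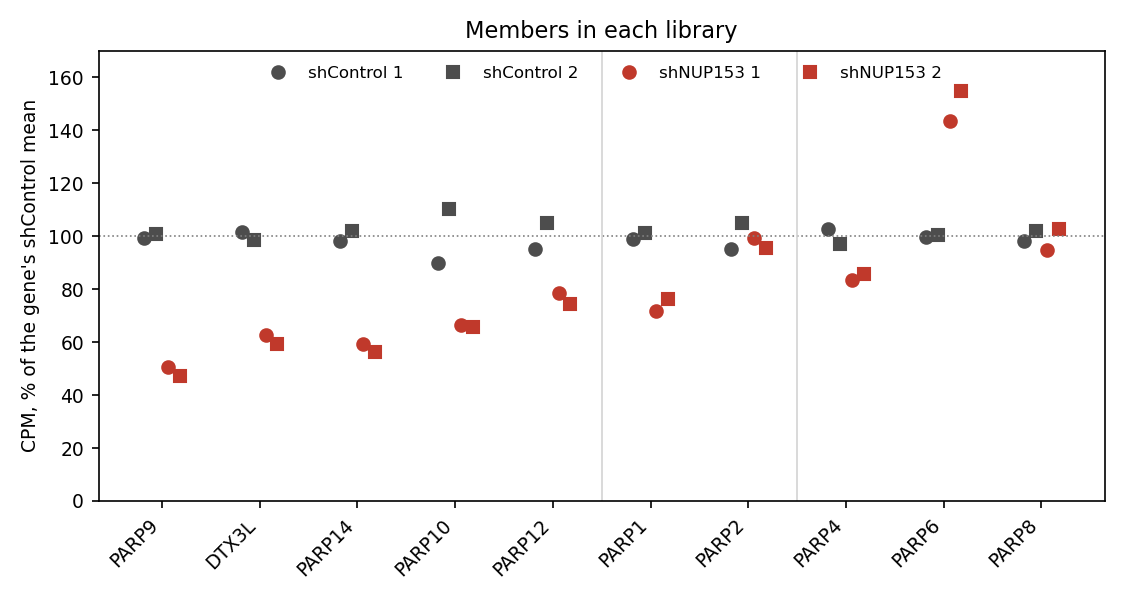
CPM of each member in each library as a percentage of that gene's shControl mean (grey, shControl; red, shNUP153; circles, replicate 1; squares, replicate 2; vertical lines part interferon-linked, DNA damage and other members). PARP9 sits lowest in shNUP153 at 127.6 and 119 CPM against 252 CPM, PARP6 is the one member above its control level, and PARP2 and PARP8 overlap between groups.

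The members that act in DNA repair differed from each other. PARP1, the main sensor of strand breaks, measured 533 and 545 CPM in shControl and 386 and 411 CPM in shNUP153. Its libraries were tight and did not overlap, and its level was 1.35-fold lower (log2 fold change −0.44, SE 0.04). PARP2, which shares the work of PARP1 at single-strand breaks, measured 32.5 and 35.9 CPM in shControl and 33.9 and 32.7 CPM in shNUP153. Its groups overlapped, with a log2 fold change of −0.04 (SE 0.08). The ratio of PARP1 to PARP2 counts was therefore 16.4 and 15.2 in shControl and 11.4 and 12.6 in shNUP153.

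The remaining members have neither role as their main one. PARP4, the PARP of the cytoplasmic vault particle, measured 86.9 and 82.2 CPM in shControl and 70.4 and 72.3 CPM in shNUP153, 1.18-fold lower (log2 fold change −0.24, SE 0.06). PARP6, a mono-ADP-ribosyl transferase, went the other way, from 9.92 and 9.98 CPM to 14.3 and 15.4 CPM, a 1.49-fold higher level (log2 fold change 0.57, SE 0.11). PARP6 is a low-count gene with 220 to 370 counts a library, and its groups did not overlap. PARP8, closely related to PARP6 in sequence, measured 17.7 and 18.3 CPM in shControl and 17.0 and 18.5 CPM in shNUP153, with overlapping groups and a log2 fold change of −0.02 (SE 0.09).

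Levels were compared between members per kilobase of merged exons in GENCODE 29, an annotation that may differ from that of the authors. The merged length joins all annotated exons of a gene (5868 bases for DTX3L, 8938 for PARP9). It may exceed the length of the transcripts present, and the order and overlaps below depend on it. In shControl the order was PARP1 (75.2 ± 1.24 CPM per kb, SD, n = 2), DTX3L (51.0 ± 1.02), PARP9 (28.2 ± 0.305) and PARP14 (19.98 ± 0.526). PARP4 (13.9 ± 0.551) and PARP10 (12.4 ± 1.76) followed and overlapped, then PARP2 (8.35 ± 0.579), PARP12 (6.93 ± 0.479), PARP8 (1.79 ± 0.047) and PARP6 (1.29 ± 0.005). In shNUP153 several neighbours in this order met. PARP14 (11.5 ± 0.398) came to overlap PARP4 (11.7 ± 0.223), PARP10 (8.15 ± 0.077) overlapped PARP2 (8.12 ± 0.212), and PARP6 (1.93 ± 0.103) stood above PARP8 (1.77 ± 0.1).

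**Figure D3:**
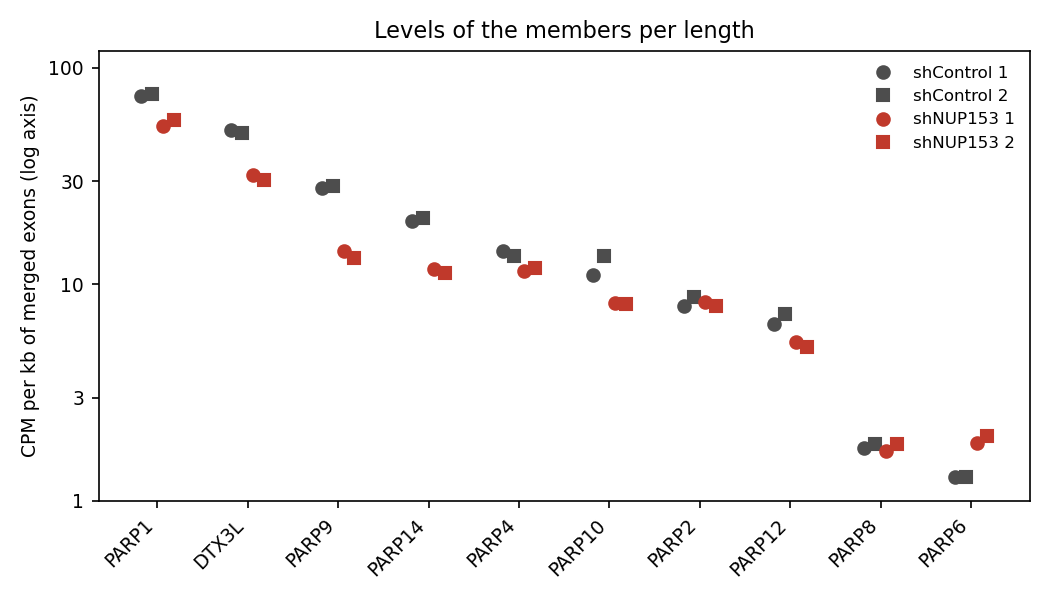
CPM per kilobase of merged exons of each member on a log axis, 1 point a library (grey, shControl; red, shNUP153; circles, replicate 1; squares, replicate 2), ordered by the shControl mean. PARP1 is the highest member in both groups at 75.2 and 55.6 CPM per kb, and PARP6 and PARP8 are the lowest.

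The rest of the PARP family was taken from a list of 8 genes, of which 7 could be tested. Of these 7, 3 fell and 2 rose, beside 17.4% and 15.0% of all tested genes. This list and those by role below were chosen with earlier results of these data known. Nothing is read from their counts, and the adjusted p-values of their genes carry the same limit. ZC3HAV1, the zinc finger antiviral protein that binds foreign RNA and lacks PARP activity, measured 141 and 143 CPM in shControl and 99.6 and 96.4 CPM in shNUP153 (log2 fold change −0.54, SE 0.05, edgeR adjusted p = 2.29e-10). PARP11 fell from 13.7 and 13.5 to 9.87 and 10.3 CPM (−0.43, SE 0.11, adjusted p = 0.00204), and PARP16, a PARP of the endoplasmic reticulum membrane, fell from 14.2 and 14.3 to 10.2 and 11.0 CPM (−0.42, SE 0.11, adjusted p = 0.00223; 0.0603 without shNUP153 replicate 1). Both were 1.34-fold to 1.35-fold lower, beside 1.35-fold for PARP1 and 1.31-fold for PARP12.

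TIPARP, the family member induced by the aryl hydrocarbon receptor, rose from 73.2 and 70.7 to 81.3 and 85.3 CPM (log2 fold change 0.21, SE 0.06, adjusted p = 0.0039), and its call was lost without shNUP153 replicate 2 (adjusted p = 0.134). TNKS2, a tankyrase that modifies axin and telomere proteins, went from 61.3 and 56.1 to 65.7 and 64.9 CPM and rose by 0.16 on the log2 scale (SE 0.06, adjusted p = 0.0486). That call was lost in 7 of 12 alternatives, with adjusted p from 0.053 with limma to 0.383 without shControl replicate 2. The related tankyrase TNKS was at −0.08 (SE 0.07, adjusted p = 0.397) and PARP3, another DNA break PARP, at −0.10 (SE 0.13, adjusted p = 0.602).

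**Figure D4:**
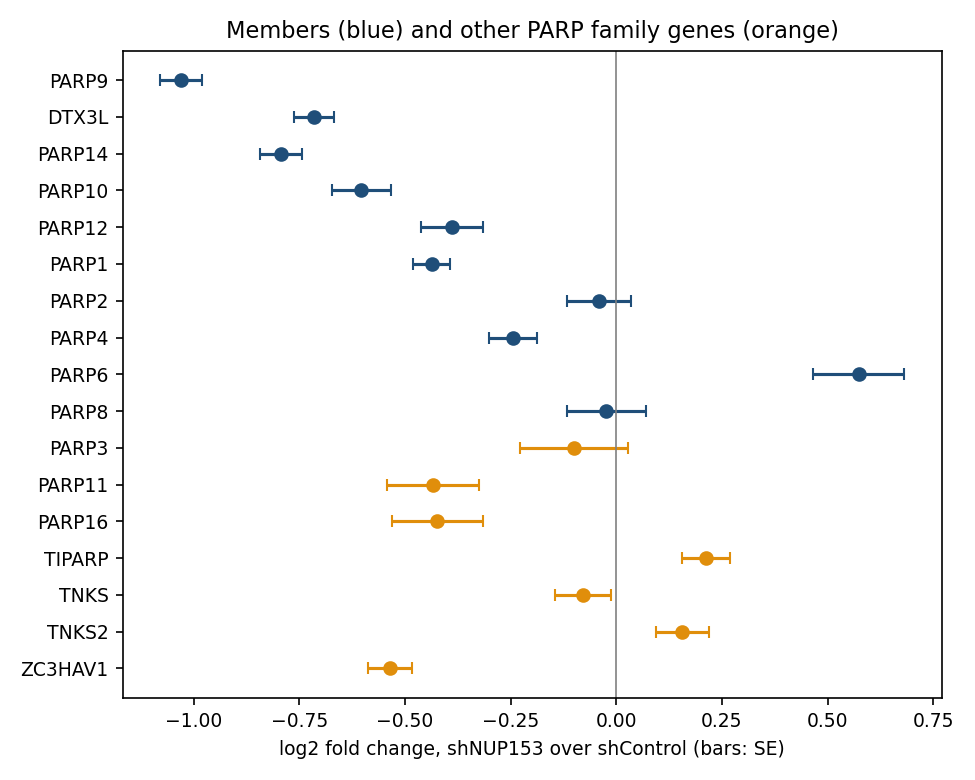
log2 fold change of shNUP153 over shControl with its SE (n = 2 libraries a group) for the members (blue) and the other tested PARP family genes (orange). PARP9 is lowest at −1.03, ZC3HAV1 at −0.54 lies among the interferon-linked members, and PARP6, TIPARP and TNKS2 lie above 0.

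Other genes of the pathway were counted in lists by role, 62 genes in all with the family list, of which 57 could be tested, 24 fell and 6 rose. These counts and those of each list below stand beside 17.4% lower and 15.0% higher among all tested genes. Nothing is read from them, since the lists were chosen with earlier results of these data known. The 3 interferon transcription factors counted here all fell. STAT2, the transactivating part of the ISGF3 complex that binds the ISRE, went from 112 and 123 to 71.9 and 64.2 CPM (log2 fold change −0.79, SE 0.06, edgeR adjusted p = 6.28e-13), a size between those of DTX3L and PARP9. IRF9, the part of that complex that recognises the ISRE, fell from 4.69 and 5.18 to 3.08 and 3.41 CPM (−0.61, SE 0.18, adjusted p = 0.00884). IRF1 fell by 0.31 (adjusted p = 0.00354). The call of IRF9 was lost with DESeq2 (adjusted p = 0.0753), without shControl replicate 2 (0.0565) and without shNUP153 replicate 1 (0.0953), and that of IRF1 without shNUP153 replicate 1 (0.0545). IRF9 shares 1838 bases of exon with AL136295.5 on the same strand. AL136295.5 itself was at 2.03 and 1.8 CPM in shControl and at 0.887 and 0.801 CPM in shNUP153. The part of this overlap in the IRF9 values was not tested.

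In base excision and single-strand break repair, the pathway that PARP1 and PARP2 serve, 9 of 20 genes fell, 2 rose and 9 were not called, beside 17.4% lower and 15.0% higher among all tested genes. The median log2 fold change was −0.07 against 0.01 over all tested genes. UNG, which removes uracil from DNA, fell most, from 113 and 121 to 52.5 and 54.7 CPM (log2 fold change −1.13, SE 0.06, adjusted p = 2.18e-17). LIG1, the ligase of DNA replication, fell by 0.77 (adjusted p = 3.89e-11), PCNA, the sliding clamp, by 0.55 (adjusted p = 1.86e-11) and the abasic site nuclease APEX1 by 0.27 (adjusted p = 1.78e-05). LIG1 and PCNA belong to replication as much as to repair. The 2 that rose, named here after their values were seen, were POLB (0.36, adjusted p = 0.0058) and SMUG1 (0.26, adjusted p = 0.00551). Calls were lost for POLB without shNUP153 replicate 1 (adjusted p = 0.0922) and for SMUG1 without shControl replicate 1 (0.0696) or shNUP153 replicate 2 (0.119).

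Of 6 readers of ADP-ribose and cofactors of PARP1, 2 fell and 0 rose, beside 17.4% and 15.0% of all tested genes. XRCC1, the scaffold that binds poly(ADP-ribose) at breaks, fell by 0.35 (adjusted p = 0.00423; 0.0631 without shNUP153 replicate 2) and the chromatin remodeller CHD1L by 0.24 (adjusted p = 0.00147; 0.0528 without shNUP153 replicate 1). HPF1, which directs PARP1 and PARP2 to serine, was at −0.21 (adjusted p = 0.134; −0.40 and 0.0289 without shNUP153 replicate 2), and the macrodomain histone gene H2AFY at −0.10 (adjusted p = 0.0805; 0.023 without shControl replicate 2).

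Among 9 tested genes listed under ADP-ribose removal, 3 fell and 1 rose, beside 17.4% and 15.0% of all tested genes. A place in this list does not show that the product of each gene removes ADP-ribose from proteins. ADPRHL2 (ADPRS), which takes ADP-ribose off serine, fell by 0.41 (SE 0.08, adjusted p = 7.92e-05), NUDT16 by 0.37 (adjusted p = 0.000234; 0.0585 without shNUP153 replicate 2) and NUDT5 by 0.16 (adjusted p = 0.0304; 0.0555 to 0.232 in 7 of 12 alternatives). ADPRHL1 rose by 0.66 from about 3 CPM (adjusted p = 0.0053; 0.196 without shNUP153 replicate 1 and 0.0527 with DESeq2). PARG, the main enzyme that cuts poly(ADP-ribose) chains, was at −0.10 (SE 0.07, adjusted p = 0.292) and is named here after its value was seen.

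Of the other Deltex ligases, DTX2 (−0.26, adjusted p = 0.00294) and DTX4 (−0.31, adjusted p = 0.000654) fell, less than DTX3L in size, and DTX1 and DTX3 were too low to test. Without shNUP153 replicate 2 both calls were lost (adjusted p = 0.127 and 0.0945). Of the vault proteins that accompany PARP4, MVP, the main shell protein, fell by 0.31 (SE 0.05, adjusted p = 3.04e-06) and TEP1 was at −0.16 (adjusted p = 0.0618). In the enzymes that supply NAD, 1 of 8 fell and 1 rose, both near or under the shares of 17.4% and 15.0% among all tested genes. The mitochondrial NMNAT3 fell by 0.67 (adjusted p = 0.000135) and the nuclear NMNAT1 rose by 0.57 (adjusted p = 0.00016). NMRK2 (1.39, adjusted p = 0.0744) and NAPRT (−0.24, adjusted p = 0.0781) did not pass. NMRK2 rests on 1 and 9 counts in shControl and passed with limma (adjusted p = 0.0493) and without shControl replicate 2 (3.44, adjusted p = 0.0221), and NAPRT passed without shControl replicate 1 (−0.39, adjusted p = 0.00152).

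**Figure D5:**
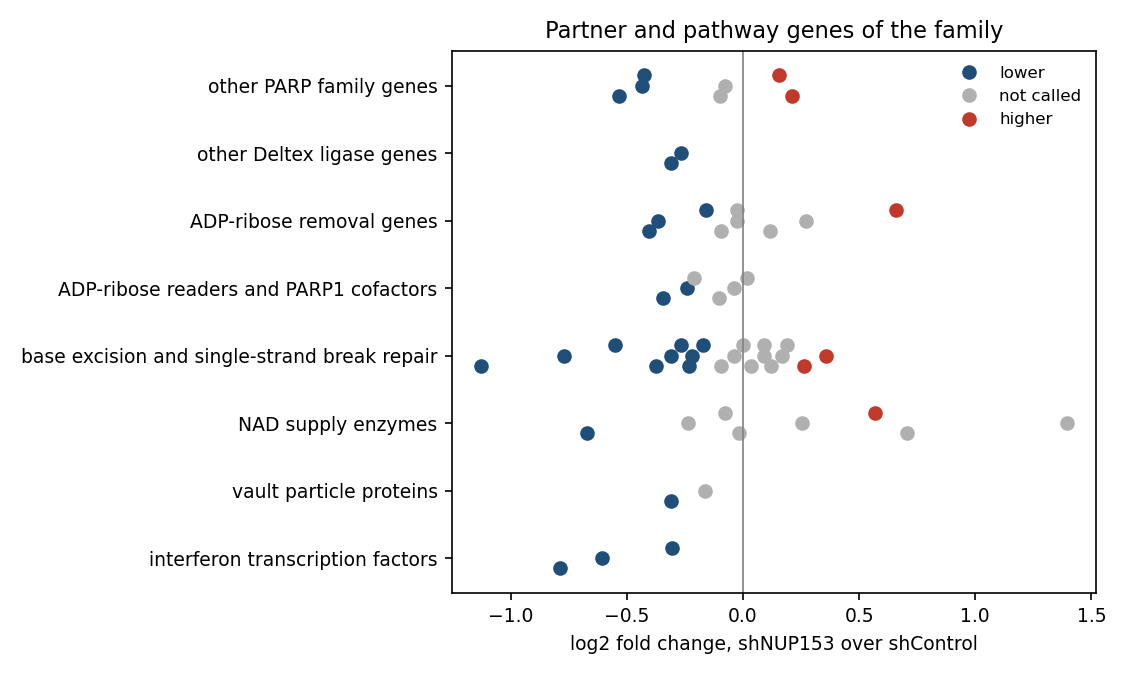
log2 fold change of shNUP153 over shControl for the 57 tested genes of the family and pathway lists, 1 point a gene (blue, fell; red, rose; grey, not called by edgeR at an adjusted p under 0.05). All 3 interferon factors lie below 0, and the repair list runs from UNG at −1.13 to POLB at 0.36.

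The genes whose profile over the 4 libraries lay nearest to the mean of PARP9, DTX3L, PARP14, PARP10 and PARP12 were CDH2, SHISA5, DDX60L, PRR15 and UGT1A10, with a root mean square distance of 0.00755 to 0.0284 on the log2 CPM scale. Their log2 fold changes were −0.67 to −0.74. With 4 libraries in 2 groups, nearness means a similar fold change and similar replicates, and UGT1A10 shares exons with the other UGT1A genes. The 5 nearest to the mean of PARP1 and PARP2 were PAQR7, ACTB, CDC42EP4, HCFC1 and TXLNA, all near −0.24, a value that neither PARP1 (−0.44) nor PARP2 (−0.04) has.

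The ISRE letters printed above were also set beside the fold changes of other genes. Of tested genes outside the 10 members whose promoter window matched by symbol, 435 held the ISRE core. Their median log2 fold change was −0.06, with 28.97% called lower in shNUP153 and 11.95% called higher. Of the 10678 without it, the median was −0.005, with 20.1% called lower and 16.2% called higher. The share called lower was larger still among genes with the E2F core (34.5%). The share at a log2 fold change of −0.5 or lower had the other order. It was 15.6% with the ISRE core and 5.13% without it, and 8.91% with the E2F core and 5.46% without it. Genes with either core were not compared with genes of like abundance. PARP9, DTX3L, PARP14 and PARP12, at −1.03, −0.71, −0.79 and −0.39, lie below the medians with and without the ISRE core. Nothing is read from their place, because the members were proposed from this contrast. PARP9 and DTX3L also share the same core, so they are not separate cases. Of the members whose windows hold no core, PARP1 (−0.44) lies below both medians, PARP2 (−0.04) and PARP8 (−0.02) lie between them, and PARP6 (0.57) lies above. Genes outside the members also fell with no ISRE core in their windows: STAT2 (−0.79), IRF9 (−0.61), ZC3HAV1 (−0.54), PARP11 (−0.43), PARP16 (−0.42) and IRF1 (−0.31). Of these, IRF9, ZC3HAV1 and IRF1 held the GAS core in their windows, and STAT2, PARP11 and PARP16 held neither core. The windows of PARP3 (−0.10), TIPARP (0.21) and TNKS2 (0.16) held neither core as well.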

How the data were processed

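RNA-seq of 4 TE5 libraries, 2 shControl and 2 shNUP153, was analysed from 1 deposited table of counts per gene. Its name says FPKM, but the deposited values are whole numbers with unequal library totals and were used as raw read counts with no normalization by the authors. Per the submitters' processing notes, kallisto, DESeq2, Bowtie2, deepTools and the build hg19 were used. No source used here gives their roles, the annotation or strand use. No row lacked a gene name. Where 45 gene IDs were repeated, the row with more counts was kept.

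Genes were kept by filterByExpr (minimum count 10, minimum total 15) and tested in all genes at once with edgeR 4.0.16 (R 4.3.3), TMM scaling, the two-sided quasi-likelihood test and Benjamini-Hochberg adjustment at 0.05. With 2 libraries a group, 2 residual degrees of freedom remain. "Rose", "fell" and "called" mean past that threshold. The SE of a log2 fold change comes from the F statistic. Alternatives were 3 other scalings, DESeq2 1.42.0, limma 3.58.1, 2 other filters, a replicate block and leaving out each library. The procedure was also run on simulated data, with an outcome not given here, and nothing is read from that run. A gene that was not called may still differ between the groups. Over genes with 20 or more counts, chi-square per gene was 3.57 between shControl and 3.09 between shNUP153 libraries, more than sampling noise, which gives about 1.

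The 10 members and the gene lists were chosen with earlier results of these data known, and 2 listed genes are not reported here and were left out of the counts. Genes named were the members, NUP153, all 8 genes of the family list, up to 4 genes of each other list by smallest p, and the 5 nearest profiles of each kind. Promoter sequences are from RefSeq (GRCh38.p14), exon lengths and overlaps from GENCODE 29.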

Additional observations from a re-analysis of the deposited data

How the results depend on the processing

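Of the 10 members, 8 were called in the edgeR fit and in 11 of 12 alternatives, and 7 were called without shNUP153 replicate 1, where PARP4 was lost. Over the 12 alternatives the log2 fold change ran from −1.08 to −0.97 for PARP9, −0.76 to −0.65 for DTX3L, −0.83 to −0.73 for PARP14, −0.74 to −0.45 for PARP10, −0.46 to −0.32 for PARP12, −0.48 to −0.37 for PARP1, −0.29 to −0.18 for PARP4, 0.52 to 0.64 for PARP6, −0.11 to 0.03 for PARP2 and −0.08 to 0.04 for PARP8. Over all genes, 2521 were called higher and 2927 lower. DESeq2 called 1442 higher, and leaving out 1 library gave 1303 to 2327 higher and 1769 to 2874 lower, the low ends without shNUP153 replicate 1 (without shNUP153 replicate 2, 1442 higher and 1900 lower). Total-count scaling gave 3573 higher and 2114 lower, and upper-quartile scaling 3177 and 2338. Of genes in the family and pathway lists, 6 were higher and 24 lower, with 4 higher by DESeq2 and 3 to 7 higher when 1 library was left out (3 without either shNUP153 library). The cause of the DESeq2 and scaling shifts was not tested, and a left-out library leaves 1 library in its group, taken to vary like the other group. The replicate numbers were not taken as pairs, since deviations of same-numbered libraries correlated at −0.004, and a replicate block gave 2530 higher and 2935 lower and 8 of 10 members called. Among named genes the block ended only the call of TNKS2 (adjusted p = 0.0537). PARP15, DTX1, DTX3, MACROD2 and QPRT had too few counts at this depth to be tested.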

Other observations

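Beyond the ISRE, the 258 tested genes outside the members whose promoter window held the E2F core had a median log2 fold change of −0.09, with 34.5% called lower and 10.1% called higher. Without the core, in 10855 genes, the shares were 20.2% and 16.2%. With the GAS core, in 936 genes, 24.4% were called lower and 15.9% higher, beside 20.1% and 16.1% in the 10177 genes without it. The genes called lower that hold each core were not compared with genes of like abundance. A share called lower does not measure the size of the falls.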
